A study of Danio rerio with 6 samples.

Results

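The step from sphere to shield in the zebrafish embryo was described from tRNA sequencing by setting the shield library against the sphere library in both deposited tables. These are 2 of the 6 libraries of the series, chosen by their stage labels, with 1 library per stage. All 38 cytoplasmic pairs of amino acid and anticodon, all 3021 cytoplasmic read sequences and all 22 mitochondrial tRNAs were compared. Both libraries came from wild-type (WT) whole embryos of the TU strain, about 50 to 100 eggs or embryos being pooled for each sample. RNA of 60 to 120 nt was cut from a gel (60 to 100 nt in the sample descriptions), deacylated, end-repaired with polynucleotide kinase and treated with a mixture of ALKB demethylases before sequencing. The other libraries were mature egg, 1cell, 256cell and 24hpf (24 hours after fertilisation), of the same strain and preparation. With a single library at each stage, every difference below is a size with no replicate check and no test. The 95% intervals cover counting error only, and PCR copies, which no molecular identifier marks here, are not separate molecules. The tables hold tRNA reads alone, so the stage of either library could not be checked against its marker genes.

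At sphere the zebrafish embryo is a late blastula whose own genome has recently become broadly active. At shield it is an early gastrula, in which cells move inward at the margin and the dorsal organiser is visible as a thickening. tRNAs carry amino acids to the ribosome, and several tRNA genes that share an anticodon can differ elsewhere in sequence, which makes them isodecoders. Mitochondrial tRNAs are made inside the organelle from its own genome, whose copies in the early embryo come from the egg.

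The leading reads of 8 anticodons show what was compared: those with the highest ratios by share (Glu-CTC, Val-TAC, Asp-GTC), the dominant His-GTG, and 4 with lower shares at shield. A leading read is the listed read of its anticodon with the highest mean RPM over the 6 libraries, and capitals mark the anticodon as found in a 7-base loop. Its ratio can differ from that of the whole anticodon. By share, the log2 of shield over sphere was -0.39 for the iMet-CAT read and -1.59 for the Ser-GCT read, against -1.08 for both sums. The reads differ in where they begin and end, and 4 of the 8 reach the 3′ CCA.
Glu-CTC: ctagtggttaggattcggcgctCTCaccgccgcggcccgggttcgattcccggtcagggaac
Val-TAC: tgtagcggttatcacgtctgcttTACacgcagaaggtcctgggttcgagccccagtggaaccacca
Asp-GTC: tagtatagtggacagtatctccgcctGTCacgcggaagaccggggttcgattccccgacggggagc
His-GTG: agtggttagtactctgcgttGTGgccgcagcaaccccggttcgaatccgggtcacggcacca
Cys-GCA: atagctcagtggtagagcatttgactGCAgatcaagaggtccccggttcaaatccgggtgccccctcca
iMet-CAT: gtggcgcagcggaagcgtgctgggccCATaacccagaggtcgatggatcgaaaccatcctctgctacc
Ser-GCT: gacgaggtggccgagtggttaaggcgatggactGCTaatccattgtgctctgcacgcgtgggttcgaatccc
Pro-TGG: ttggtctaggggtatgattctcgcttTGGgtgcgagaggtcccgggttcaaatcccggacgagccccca

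The balance between the tables moved before any single tRNA is considered. The mitochondrial table held 20.1% of the sphere library and 10.0% of the shield library, 2.01-fold less (log2 -1.004, interval -1.009 to -0.999). The cytoplasmic table held 53.3% of the reads at sphere and 73.2% at shield (log2 0.46), and reads in neither table made up 26.6% and 16.8%. His-GTG reads alone went from 45.03% to 62.0% of the library and all other cytoplasmic reads together from 8.30% to 11.2%, so both were higher by nearly the same factor (log2 0.46 and 0.43). In pooled whole embryos, fewer mitochondria, less tRNA in each and more cytoplasmic tRNA cannot be told apart. RPM gives parts of a library, not amounts per embryo.

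Cytoplasmic tRNAs were therefore set on 2 scales: the share of the cytoplasmic table, on which the table total stays at 0, and RPM, in which reads are scaled by library size and on which the whole table is 0.46 higher at shield. All log2 values are shield over sphere with a pseudocount of 1 RPM, and for cytoplasmic reads they are by share, also beside RPM values, unless RPM is named. For mitochondrial tRNAs they are in RPM unless a share is named. Of the 38 anticodons, 35 had the mean of 10 RPM over the 6 libraries required for counting. By share, 0 of the 35 anticodons were at least 2-fold higher at shield (0%) and 8 were at least 2-fold lower (22.9%). In RPM, 2 were at least 2-fold higher (5.71%) and 0 were at least 2-fold lower (0%). The median anticodon stood at -0.61 by share and -0.15 in RPM, so most anticodons lay below 0 on both scales. His-GTG, with 84.4% of the table at sphere and 84.7% at shield, fixes the zero of the share scale. All other reads together stood at -0.02 by share, so leaving His-GTG out moves every other ratio by the same small amount. The median was then -0.59 and 8 of the other 34 anticodons were at least 2-fold lower, which is no separate check of the count.

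**Figure D1:**
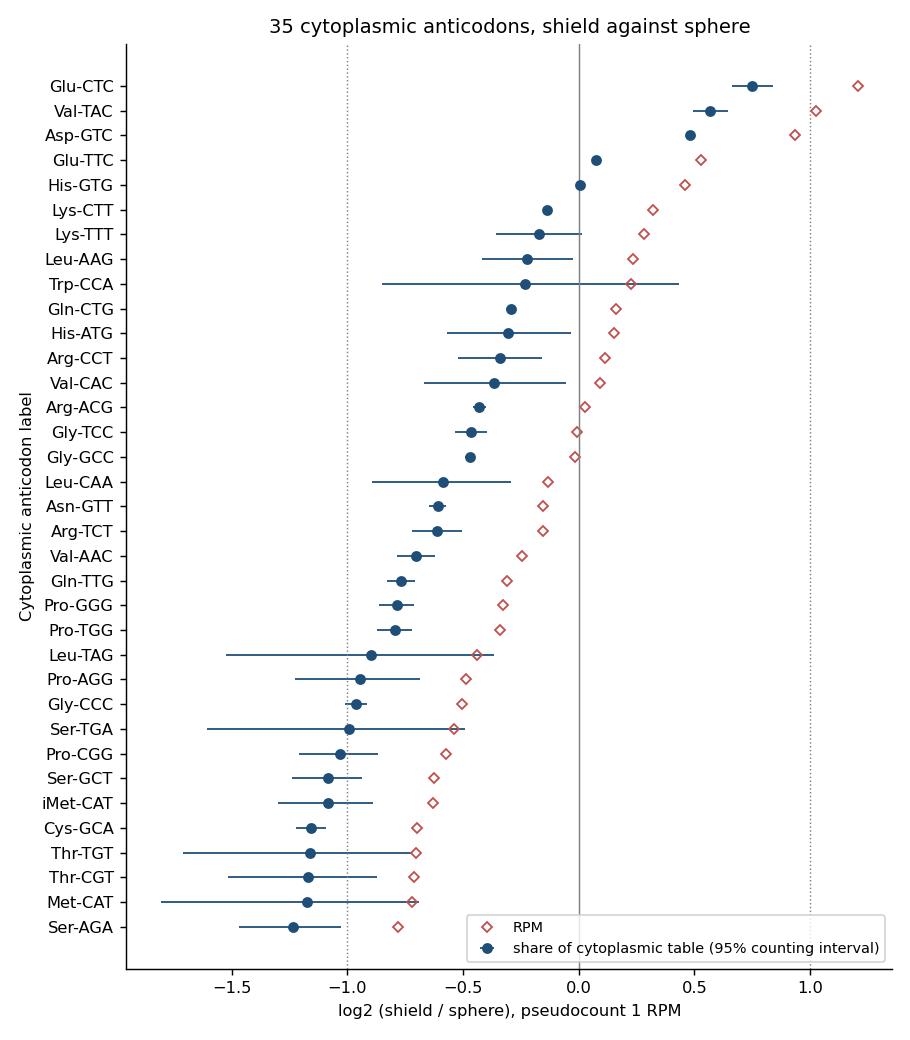
The log2 ratio of shield to sphere (x axis) for the 35 cytoplasmic anticodons (y axis), as a share of the cytoplasmic table (filled points, with 95% counting intervals) and in RPM (open diamonds). Glu-CTC, Val-TAC and Asp-GTC lie at the top at 0.75, 0.57 and 0.48 by share, and Ser-AGA at the bottom at -1.24; dotted lines mark the 2-fold size.

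The tRNAs of the acidic amino acids stood above 0 together, 3 of 3 by share, by RPM and under median-ratio scaling (division by the median ratio over the anticodons), with a list median of 0.48 by share against -0.61 over all anticodons. Of all 35 anticodons, 5 lay above 0 by share, 14 in RPM and 19 under median-ratio scaling. These scales differ only by a shift common to all anticodons, so they are not separate checks. The acidic list, like the sulphur and the serine and threonine lists below, was chosen with results of these libraries known. Asp-GTC, the aspartate tRNA and the second most abundant anticodon of the table at shield, had 20957 RPM at sphere and 40117 at shield, against 13060 in egg, 18276 at 1cell, 15733 at 256cell and 21354 at 24hpf. Its share of the table was 3.93% at sphere and 5.48% at shield (log2 0.48, interval 0.47 to 0.49), and 1.97% in egg, 4.32% at 1cell, 2.79% at 256cell and 2.75% at 24hpf. Shield was thus the highest of the 6 libraries for this tRNA on both scales, and the next library, 24hpf, was back near the sphere level in RPM.

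Glu-CTC, the glutamate tRNA that reads GAG, had the highest ratio of any anticodon. It held 286 RPM at sphere and 662 at shield, against 282 in egg, 137 at 1cell, 248 at 256cell and 845 at 24hpf, giving a log2 of 0.75 by share (interval 0.66 to 0.84) and 1.21 in RPM. Shield was its second highest library after 24hpf, by share as in RPM, and the same held for Val-TAC. Glu-TTC, the glutamate tRNA that reads GAA, was far more abundant and went from 13375 to 19318 RPM, which was 0.07 by share (interval 0.06 to 0.09) and 0.53 in RPM.

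Val-TAC was the other anticodon at least 2-fold higher in RPM. It had 407 RPM at sphere and 828 at shield, against 314 in egg, 227 at 1cell, 319 at 256cell and 3653 at 24hpf, with a log2 of 0.57 by share (interval 0.49 to 0.64) and 1.02 in RPM. The valine total hid this: the 3 valine anticodons together stood at -0.04 by share, because Val-AAC, with more reads at sphere, was lower. Val-TAC carried 2 kinds of reads. The 11 sequences with TAC in the anticodon loop went from 212 to 550 RPM (log2 0.91 by share, interval 0.82 to 1.02), while the 9 sequences with no TAC loop went from 194 to 278 RPM (log2 0.06, interval -0.06 to 0.18).

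**Figure D2:**
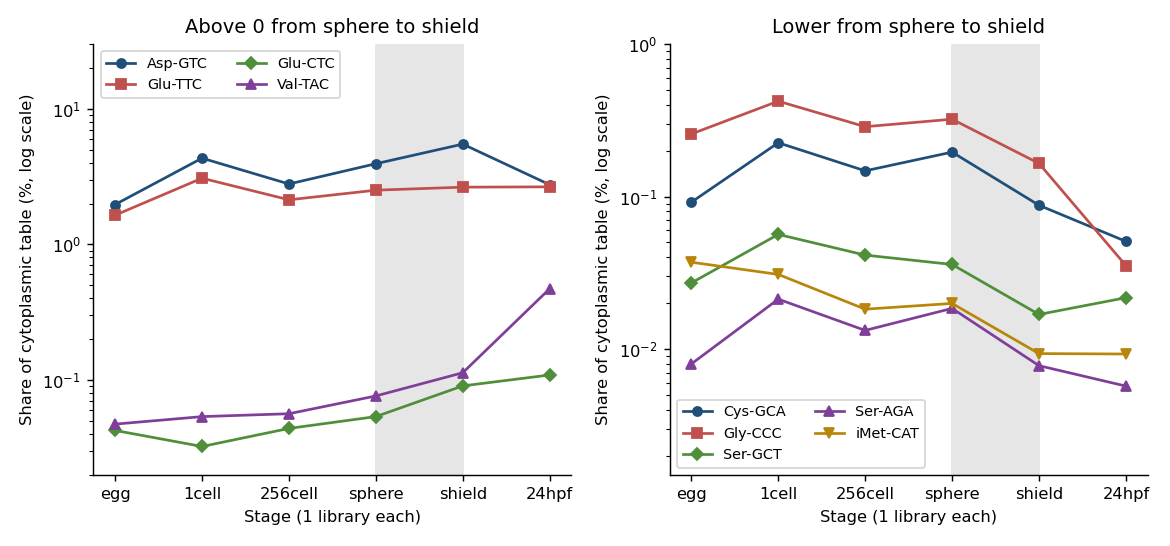
Share of the cytoplasmic table (y axis, percent, log scale) in the 6 libraries (x axis, 1 library each), with the step from sphere to shield shaded. Asp-GTC peaks at shield at 5.48% and Val-TAC and Glu-CTC are higher again at 24hpf (left), while Cys-GCA, Gly-CCC, Ser-GCT, Ser-AGA and iMet-CAT are all lower at shield than at sphere (right).

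At the other end, the 3 tRNAs of the sulphur-containing amino acids were all at least 2-fold lower by share (8 of 35, or 22.9%, over all anticodons), with a list median of -1.16, and below 0 but less than 2-fold lower in RPM (median -0.70). Cys-GCA, the only cysteine tRNA listed, had 1043 RPM at sphere and 642 at shield, against 610 in egg, 953 at 1cell, 833 at 256cell and 394 at 24hpf. Its log2 was -1.16 by share (interval -1.22 to -1.09) and -0.70 in RPM, and in RPM sphere was its highest library and 24hpf its lowest. Initiator methionine iMet-CAT, which starts proteins made in the cytoplasm, went from 106 to 68.4 RPM (log2 -1.08, interval -1.30 to -0.89). It had 246 RPM in egg, 131 at 1cell, 103 at 256cell and 72.1 at 24hpf. Elongator Met-CAT rested on 96 and 40 reads and stood at -1.18 with an interval of -1.81 to -0.69.

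Of the 5 serine and threonine anticodons counted, 4 were at least 2-fold lower by share, against 22.9% of all anticodons, and the list median was -1.16 (RPM median -0.70). Ser-GCT, which reads AGC and AGT, had 191 RPM at sphere and 123 at shield, against 180 in egg, 239 at 1cell, 233 at 256cell and 169 at 24hpf. Shield was its lowest library, and the ratio to sphere was -1.08 by share (interval -1.24 to -0.94). Ser-AGA, which had the lowest ratio of any counted anticodon, went from 98.6 to 57.0 RPM (log2 -1.24, interval -1.47 to -1.03). Thr-CGT stood at -1.17 and Thr-TGT at -1.16, and Ser-TGA was just inside the 2-fold size at -0.99. Only for Ser-AGA and Cys-GCA did the whole counting interval lie below -1, and the 6 other anticodons called lower had intervals that reached past it.

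The 4 proline anticodons lay close together at -0.79 (Pro-GGG), -0.80 (Pro-TGG), -0.95 (Pro-AGG) and -1.03 (Pro-CGG) by share, all below 0 in RPM and under median-ratio scaling too. Their summed level was 1567 RPM at sphere and 1220 RPM at shield. All 9 Pro-AGG sequences had G in place of the first A of the label. Their loop therefore reads GGG, as in Pro-GGG, and does not separate those labels. Serine and leucine tRNAs, which have a long variable arm (type II), had a median of -0.95, with 2 of 6 at least 2-fold lower, a share near the 22.9% of all anticodons. Leucine lay above serine, with Leu-AAG at -0.22, Leu-CAA at -0.59 and Leu-TAG at -0.90, all of them below 100 RPM in both libraries.

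For several of the remaining abundant tRNAs the sign of the ratio depended on the scale. Lys-CTT, next in abundance after His-GTG and Asp-GTC, went from 18121 to 22643 RPM, which is -0.14 by share and 0.32 in RPM. Gln-CTG went from 6187 to 6925 RPM (-0.29 by share, 0.16 in RPM) and Arg-ACG from 4041 to 4118 RPM (-0.43 by share, 0.03 in RPM). Gly-GCC was level in RPM, 9155 against 9065, and so stood at -0.47 by share. Asn-GTT went from 2666 to 2398 RPM (-0.61 by share, -0.15 in RPM), and Gly-CCC, from 1713 to 1206 RPM, was near the 2-fold size by share at -0.96.

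Groups formed by amino acid chemistry, anticodon base or use as fragment donors lay between those ends. Medians by share were -0.30 for the 7 basic, -0.61 for the 3 amide, -0.47 for the 3 small and -0.48 for the 6 branched-chain anticodons, and the single aromatic anticodon counted, Trp-CCA, stood at -0.23 on 47 and 40 reads. The 9 anticodons known as donors of 5′ tRNA fragments had a median of -0.14, with 4 above and 5 below 0, and in RPM their median was 0.32. By the first anticodon base, which pairs with the third base of the codon, medians were -0.57 for A, -0.48 for C, -0.61 for G and -0.69 for T. These lists overlap, were chosen with results of these libraries known, and stand beside the all-anticodon median of -0.61. Outside the count, Tyr-GTA stood at 0.32 on 13 and 19 reads, Thr-AGT at -1.33 on 64 and 23, and Ala-TGC at -1.37 on 58 and 20.

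Isoacceptors, tRNAs of 1 amino acid with different anticodons, were together in some amino acids and apart in others. The distance between the highest and lowest anticodon of an amino acid was 1.27 for valine (Val-TAC 0.57, Val-AAC -0.70), 0.68 for glutamate, 0.67 for leucine and 0.50 for glycine. It was 0.25 for proline, 0.24 for serine, 0.04 for lysine and 0.01 for the 2 threonine anticodons counted. These distances are between point values, without intervals. Leu-TAG rested on 78 and 40 reads, and its interval of -1.52 to -0.37 overlapped that of Leu-AAG, -0.42 to -0.02. Thr-TGT rested on 120 and 51 reads, with an interval of -1.71 to -0.72, so a distance near 0 is not well determined there. Lys-TTT, with a single listed sequence, moved as Lys-CTT did in this step, from 87.4 to 107 RPM (-0.17 by share, 0.28 in RPM).

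Among single reads the balance of higher and lower sequences turned with the scale. Of 1913 sequences with a mean of at least 10 RPM, 26 were at least 2-fold higher by share (1.36%) and 150 at least 2-fold lower (7.84%), against 128 higher (6.69%) and 42 lower (2.20%) in RPM. Of the 357 with at least 100 RPM, 4 were higher by share (1.12%) and 10 lower (2.80%), against 27 higher (7.56%) and 1 lower (0.280%) in RPM. The highest by share of these 357 was the Val-TAC read printed above, at 41.9 RPM at sphere and 150 at shield (log2 1.35 by share, 1.81 in RPM), followed by a Gly-GCC read of 67 nt from 113 to 339 RPM (1.12 by share, 1.57 in RPM). Asp-GTC and Val-TAC reads made up the other 6 of the 8 highest, at 0.82 to 1.09 by share. The filter is a mean over the 6 libraries, shield and 24hpf included. The printed Val-TAC read and those of 64 and 63 nt passed it through 24hpf, with 1036, 840 and 611 RPM there. The Asp-GTC reads of 66, 61 and 60 nt were highest at shield itself, with 332, 215 and 230 RPM. Their place among the highest thus rests in part on the filter. His-GTG, with 1008 of the 1913 sequences, had 1 of those at least 2-fold higher and 10 of those at least 2-fold lower, and its 5 most abundant reads stood between -0.17 and 0.13.

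The lowest read by share among those of at least 100 RPM was a Gln-CTG sequence that stops short of the 3′ CCA and begins with bases that the leading Gln-CTG read lacks. It is shown beside the next-lowest Gln-CTG read, which is 1 base longer, and the capitals again mark the anticodon.
Gln-CTG, 63 nt: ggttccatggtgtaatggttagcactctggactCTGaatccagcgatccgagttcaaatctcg
Gln-CTG, 64 nt: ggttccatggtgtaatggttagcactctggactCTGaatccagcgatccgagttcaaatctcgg
The first went from 178 to 70.8 RPM (log2 -1.78 by share, -1.32 in RPM) and the second from 158 to 89.7 RPM (-1.27 by share, -0.81 in RPM). The Gln-CTG label as a whole stood at -0.29, and reads ending in CCA made up 77.0% of it at sphere and 80.3% at shield. The other 6 of the 8 lowest reads of that abundance included 3 Gln-TTG reads at -1.41, -1.17 and -1.07. The rest were an Asn-GTT read at -1.20, a Pro-GGG read at -1.18 and a Val-AAC read at -1.14. The Asn-GTT and Pro-GGG reads were highest at 1cell, with 455 and 199 RPM, so their place here also rests in part on the filter.

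Within an anticodon, reads were joined into families. A family is the most abundant read left under an anticodon together with all reads that overlap it exactly over at least 50 nt. Abundance here was the mean RPM over the 6 libraries. Reads of 1 RNA that start or stop at different bases are thus joined, and reads that differ by a substitution in the overlap are not. A read that does not reach the base at which 2 leading reads differ can match both, and it was put in the family formed first. Of the 239 families with a mean of at least 50 RPM, 3 were at least 2-fold higher by share (1.26%) and 25 at least 2-fold lower (10.5%), and in RPM 12 were higher (5.02%) and 5 lower (2.09%). The 239 families held 98.7% of the cytoplasmic reads at sphere and 98.9% at shield. None of the 126 His-GTG families was past the 2-fold size, their median being -0.17, against -0.52 for the 113 others. The 3 higher families belonged to Val-TAC (1.23), Gly-GCC (1.22) and Gln-TTG (1.01).

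**Figure D3:**
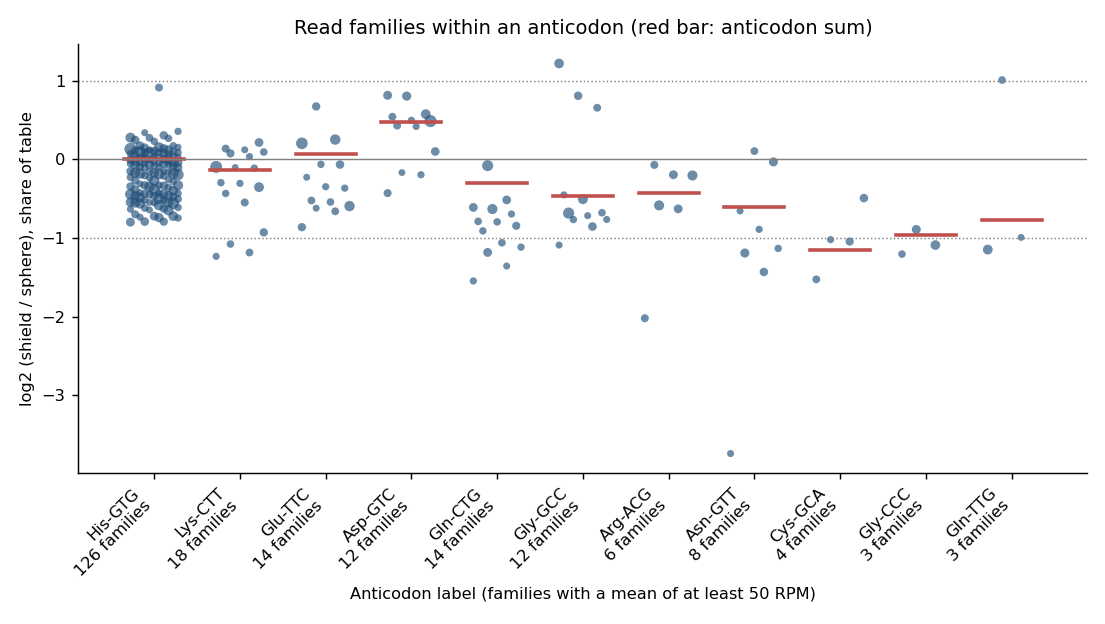
Each point is a read family with a mean of at least 50 RPM, placed by anticodon (x axis) and by its log2 ratio of shield to sphere as a share of the cytoplasmic table (y axis), with larger points for more abundant families and a red bar for the anticodon sum. His-GTG families stay inside the 2-fold lines, Asp-GTC families cluster near their sum at 0.48, and Gly-GCC, Asn-GTT and Gln-TTG families spread widely. The lowest point is an Asn-GTT family at -3.74, which passed the filter only through libraries other than sphere and shield.

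Gly-GCC, the most abundant glycine tRNA, held read families with ratios of opposite sign under a sum nearly level in RPM. The 3 families shown share an anticodon and a length, and capitals mark the bases at which each of the later 2 differs from family 1.
Gly-GCC family 1: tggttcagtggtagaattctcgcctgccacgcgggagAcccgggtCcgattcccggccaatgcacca
Gly-GCC family 3: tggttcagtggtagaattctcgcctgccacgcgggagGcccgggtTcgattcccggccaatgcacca
Gly-GCC family 5: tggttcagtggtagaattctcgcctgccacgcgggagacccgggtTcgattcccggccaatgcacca
Counted from the first printed base, with the base of family 1 first, family 3 differs by A38G and C46T and family 5 by C46T alone. Family 1 had 5741 RPM at sphere and 4909 at shield (log2 -0.68 by share), against 9433 in egg, 4809 at 1cell, 5591 at 256cell and 1527 at 24hpf. Family 3 had 287 RPM at sphere and 919 at shield (log2 1.22, interval 1.14 to 1.305), against 296 in egg, 145 at 1cell, 255 at 256cell and 2794 at 24hpf. Family 5 went from 190 to 459 RPM (log2 0.81). As parts of all Gly-GCC reads, family 1 went from 62.7% to 54.2%, family 3 from 3.13% to 10.1% and family 5 from 2.08% to 5.06%.

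Gln-TTG, which reads CAA, had the same layout with fewer reads. Capitals mark the 2 bases that differ.
Gln-TTG family 1: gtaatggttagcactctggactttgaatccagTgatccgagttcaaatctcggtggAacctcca
Gln-TTG family 3: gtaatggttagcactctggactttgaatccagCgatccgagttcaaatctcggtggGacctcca
Family 3 differs from family 1 by T33C and A57G, with positions counted from the first printed base. Family 1 went from 860 to 533 RPM (log2 -1.15) and from 82.8% to 63.7% of the Gln-TTG reads. Family 3 had 65.8 RPM at sphere and 184 at shield (log2 1.01, interval 0.84 to 1.20), against 104 in egg, 57.3 at 1cell, 56.8 at 256cell and 155 at 24hpf. It held 6.34% of Gln-TTG reads at sphere and 21.9% at shield. The 2 main Gln-CTG families, whose leading reads differ by A58G, went from 3895 to 5059 RPM and from 698 to 618 RPM, or -0.08 and -0.63 by share. The first of them includes the Gln-CTG reads of 63 and 64 nt printed above, which end before that base.

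Asn-GTT, the asparagine tRNA, exchanged the largest part of its reads between families in this step among the 20 anticodons measured, though less than in any other step. Capitals in families 2 and 1 mark the bases at which those 2 differ, and in family 3 the base at which it differs from family 2.
Asn-GTT family 2: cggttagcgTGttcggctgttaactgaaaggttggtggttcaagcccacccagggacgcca
Asn-GTT family 1: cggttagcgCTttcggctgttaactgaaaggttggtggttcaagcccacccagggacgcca
Asn-GTT family 3: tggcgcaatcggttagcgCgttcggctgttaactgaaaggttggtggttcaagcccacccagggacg
Counted from the first printed base of family 2, family 1 differs by T10C and G11T and family 3 by T10C. Family 1 had 778 RPM at sphere and 1045 at shield (-0.03 by share, 0.42 in RPM), against 160 in egg, 130 at 1cell, 154 at 256cell and 84.6 at 24hpf. Family 3 had 782 RPM at sphere and 398 at shield (-1.43 by share, interval -1.51 to -1.35, and -0.97 in RPM), against 10.4 in egg, 90.4 at 1cell, 11.7 at 256cell and 62.1 at 24hpf. Both were highest at sphere and shield, and they were level with each other at sphere but not at shield. Family 2 was highest at 1cell, with 1371 RPM, and went from 349 to 210 RPM (log2 -1.19). The lowest of all 239 families was also of Asn-GTT: 65 reads at sphere and 1 at shield, or 11.03 and 0.24 RPM. Its ratio was -3.74, with a counting interval from -11.3 to -3.47 on the log2 scale. The pseudocount is in the ratio but not in the interval, so the ratio lies near the upper end. With these values it passed the filter of 50 RPM only through other libraries.

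A single base separated further pairs of families. They are Cys-GCA families 1 and 3, Arg-ACG families 2 and 6, and Glu-TTC families 1 and 2, and capitals mark the base that differs in each pair.
Cys-GCA family 1: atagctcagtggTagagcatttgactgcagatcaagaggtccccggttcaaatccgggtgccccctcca
Cys-GCA family 3: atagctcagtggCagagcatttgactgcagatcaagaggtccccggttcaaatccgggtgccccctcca
Arg-ACG family 2: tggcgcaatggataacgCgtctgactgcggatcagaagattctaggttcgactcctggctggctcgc
Arg-ACG family 6: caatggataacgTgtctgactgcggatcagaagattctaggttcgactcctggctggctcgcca
Glu-TTC family 1: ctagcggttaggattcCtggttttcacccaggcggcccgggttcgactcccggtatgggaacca
Glu-TTC family 2: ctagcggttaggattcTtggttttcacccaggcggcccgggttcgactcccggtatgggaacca
The Cys-GCA pair differs by T13C, the Arg-ACG pair by C18T and the Glu-TTC pair by C17T, each counted from the first printed base of the first read of the pair. Cys-GCA family 1 went from 260 to 253 RPM (-0.49 by share) and family 3 from 292 to 139 RPM (-1.52), so that family 3 was the larger of the pair at sphere and the smaller at shield. Arg-ACG family 2 went from 1283 to 1529 RPM (-0.20) and family 6 from 107 to 35.6 RPM (-2.02). Glu-TTC family 1 went from 7752 to 12256 RPM (0.20) and family 2 from 1945 to 1769 RPM (-0.59). Whether a base difference marks another gene, a modified base read as another base or an error of sequencing was not tested.

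**Figure D4:**
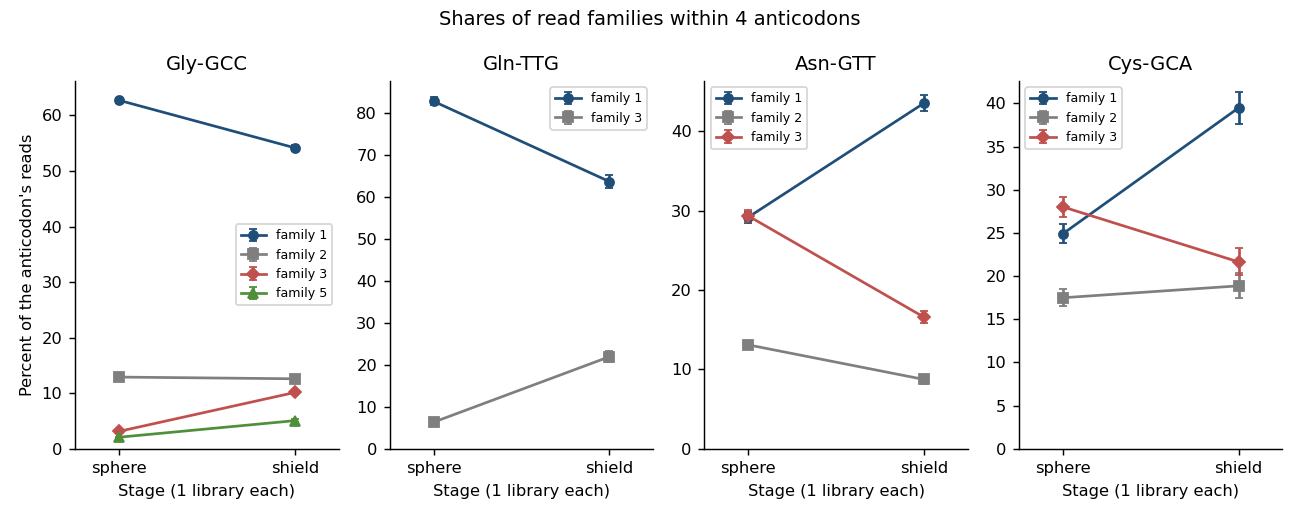
Percent of an anticodon's reads (y axis, with 95% Clopper-Pearson intervals) held by its named read families at sphere and shield (x axis, 1 library each). Family 3 of Gly-GCC goes from 3.13% to 10.1% and that of Gln-TTG from 6.34% to 21.9%, while family 3 of Asn-GTT and of Cys-GCA goes down and family 1 goes up.

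The exchange within an anticodon was put as the summed absolute difference of family shares between the libraries divided by 2, which is 0 when every family keeps its share. From sphere to shield it was 21.4% for Asn-GTT, 20.7% for Gln-TTG, 16.8% for Val-TAC, 16.6% for Cys-GCA and 12.3% for Gly-GCC. It was 3.73% for His-GTG, 3.39% for Lys-CTT, 1.66% for Asp-GTC, 0.91% for Arg-TCT and 0.76% for Gly-TCC. Asp-GTC was therefore higher at shield with its families in nearly the same proportions, the leading one going from 85.3% to 85.6% of the reads. Asn-GTT exchanged more in every other step: 32.1% from egg to 1cell, 44.5% to 256cell, 45.1% to sphere and 30.6% from shield to 24hpf. Counting error adds to the exchange of anticodons with few reads, and how much it adds was not tested. The 14.3% of iMet-CAT rested on 626 and 288 reads, and the 0.91% of Arg-TCT on 1754 and 1126.

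The anticodon label was checked in the whole table. Reads with the labelled bases in an anticodon loop made up 98.9% of the cytoplasmic table at sphere and 99.1% at shield. Reads of labels beginning with A that had G in that place, the base as which inosine is read, made up 0.91% and 0.65% over 163 sequences, and 0.22% and 0.20% had no such loop. Arg-ACG, whose 125 sequences are all of this kind, went from 0.76% to 0.56% of the table.

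Read ends and the T loop differed little between the libraries over the whole table. Reads ending in CCA, the 3′ end to which the amino acid is attached, made up 86.4% at sphere and 86.1% at shield, and 44.97% and 40.1% without His-GTG. By anticodon, the CCA share was 94.0% and 94.4% for His-GTG, 20.7% and 20.1% for Asp-GTC and 77.0% and 80.3% for Gln-CTG. It was higher at shield in Val-TAC, 62.7% (interval 60.8 to 64.7) against 76.0% (74.6 to 77.5), and in Ser-GCT, 52.8% (49.8 to 55.7) against 65% (60.7 to 69.1). The mix of Val-TAC reads differed too: those with a TAC loop went from 212 to 550 RPM and those without from 194 to 278 RPM. How far that mix set the CCA share of Val-TAC was not tested. In Lys-CTT the CCA share was 12.2% and 14.3%, and in Glu-TTC it was lower at shield, 60.6% against 57.8%. The pooled CCA share without His-GTG also depends on the mix of anticodons. Asp-GTC, with few CCA ends, went from 3.93% to 5.48% of the table. Reads of 70 nt or more were 0.66% and 0.56% of the table. Those of 60 to 67 nt made up 97.4% and 97.8%, and the mean length was 63.3 and 63.2 nt. All ratios here are thus mainly of reads of that length, and levels of whole tRNAs were not measured.

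The T loop of most tRNAs has an adenosine that can carry a methyl group, which ALKB enzymes remove, and a remaining methyl group can be read as another base. The base at that place was not A in 5.83% of reads at sphere and 6.09% at shield, over 2866 sequences in which the T loop was found. Without His-GTG it went the other way, from 3.03% (interval 2.98 to 3.07) to 2.62% (2.58 to 2.67). It was not A in 6.35% and 6.72% of His-GTG reads, 16.3% and 16.7% of Gly-GCC reads, 4.26% and 6.39% of Asn-GTT reads (intervals 3.95 to 4.59 and 5.92 to 6.88) and 3.84% and 4.62% of Lys-CTT reads. In Glu-TTC it was 0.35% and 0.22%. The pooled value without His-GTG also depends on the mix of anticodons, which differed between the libraries. Asp-GTC, not A in 0.12% and 0.11% of its reads, went from 3.93% to 5.48% of the table. Gly-GCC went from 1.72% to 1.24% of the table. These shares are of the listed reads, and how sequences were chosen for listing is not given in the sources used here.

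All 22 mitochondrial tRNAs were lower at shield than at sphere in RPM, 16 of them at least 2-fold (72.7%) and 0 at least 2-fold higher (0%). The range was narrow, from -0.85 for trnL2 to -1.63 for trnM, around a table total of -1.004. By share of the mitochondrial reads 0 of 22 were at least 2-fold higher (0%) and 0 at least 2-fold lower (0%), and the median was -0.17. The ratios of the 22 tRNAs thus lay close together, while the summed cytoplasmic reads were 1.37-fold higher in RPM.

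The names and order of the genes were taken from RefSeq (assembly GRCz12tu), where 22 of 22 matched. Of the mitochondrial reads, trnV and trnL2 together held 68.2% at sphere and 70.2% at shield. trnV, the valine tRNA between the genes of both ribosomal RNAs, had 86704 RPM at sphere and 42492 at shield, against 42404 in egg, 120478 at 1cell, 109016 at 256cell and 18573 at 24hpf. trnL2, a leucine tRNA just before ND5, went from 50224 to 27873 RPM (-0.85 in RPM, 0.15 by share), and trnH, 2 genes earlier, from 15766 to 8743 RPM (-0.85 and 0.15). Those 2 had the highest ratios, and trnP followed at 0.11 by share.

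The lowest ratios were in genes between ND1 and COX1. trnM, the methionine tRNA directly before ND2, had 2305 RPM at sphere and 742 at shield, against 1148 in egg, 3922 at 1cell, 2244 at 256cell and 237 at 24hpf. It was thus 3.11-fold lower at shield (log2 -1.63, interval -1.69 to -1.58). Its share of the mitochondrial reads went from 1.15% to 0.74% (log2 -0.63). trnY, the tyrosine tRNA, went from 243 to 81.2 RPM (-1.57, interval -1.76 to -1.41) and trnQ, the glutamine tRNA on the strand opposite to trnM, from 166 to 58.4 RPM (-1.49, interval -1.71 to -1.30). trnI, the remaining gene of the cluster of trnI, trnQ and trnM, stood at -1.001, near the table total.

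The mitochondrial genome is copied into long RNAs from both strands, from which the tRNAs are cut. The 8 tRNAs encoded on the light strand had a median of -0.24 by share, with 2 above and 6 below 0, and the 14 on the heavy strand -0.04, with 5 above and 9 below; trnS1 was put on the light strand from its place between COX1 and trnD. By position, medians by share were -0.03 next to the rRNA genes, -0.49 in the cluster of trnI, trnQ and trnM, -0.21 in that of trnW, trnA, trnN, trnC and trnY, -0.20 between COX1 and ND5 and 0.05 for the 3 flanking cytochrome b. The strand lists overlapped, since the heavy-strand trnM was lowest of all and the light-strand trnP and trnE stood at 0.11 and 0.05 by share.

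**Figure D5:**
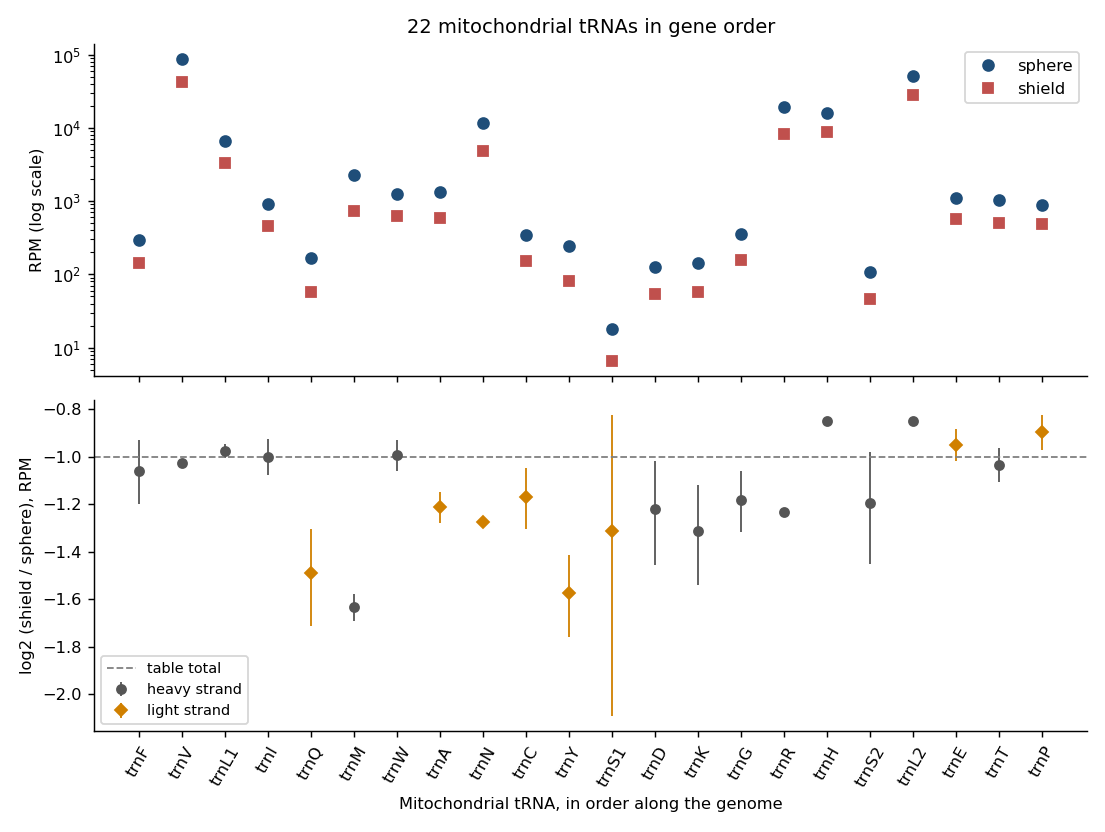
The 22 mitochondrial tRNAs in gene order (x axis), with RPM at sphere and shield on a log scale (top) and the log2 ratio of shield to sphere in RPM with 95% counting intervals (bottom, heavy- and light-strand genes marked, dashed line at the table total of -1.004). Every tRNA is lower at shield, and trnM, trnY and trnQ lie farthest below the line.

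The counts behind the mitochondrial table were almost all even: 125 of the 132 values over the 6 libraries, 21 of 22 at sphere and 22 of 22 at shield, against 50.3% of the cytoplasmic values. The way reads were counted for this table is not given in the sources used here, and whether each read was counted 2 times was not tested. With every mitochondrial count halved, the ratios between stages keep their values, but the table would hold 10.0% of the sphere and 5.01% of the shield library, and 15.8% and 6.41% of the reads in both tables instead of 27.4% and 12.04%. Counting intervals would be wider, for trnM from -1.72 to -1.56.

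Set beside its neighbours, the step was of middle size for cytoplasmic tRNAs. The median absolute log2 ratio over the 35 anticodons was 0.91 from egg to 1cell, 0.48 from 1cell to 256cell, 0.26 from 256cell to sphere, 0.61 from sphere to shield and 0.71 from shield to 24hpf. The numbers of anticodons at least 2-fold higher and lower were 15 and 0, 0 and 4, 2 and 0, 0 and 8, and 2 and 12 in that order. The mitochondrial total was 0.81, 0.04, -0.27, -1.004 and -1.35 on the log2 scale in RPM, so it was lower at shield than at sphere and lower again at 24hpf. Neighbouring steps share a library, and the differences between steps were not tested.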

How the data were processed

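tRNA reads of 6 libraries, 1 per stage, were analysed, and sphere and shield were compared. The authors deposited RPM values in a table of 3021 labelled cytoplasmic reads and a table of 22 mitochondrial tRNAs. The submitters' processing notes name cutadapt 3.4, Bowtie2 2.4.2 and the build GRCz11. Settings and the counting of multi-mapped reads were not given in the sources used here. Whole reads were recovered from the RPM step of 1 read (100% of values within 0.01 reads), which gave read counts and library totals of 5892692 reads at sphere and 4211882 at shield (3324546 to 7096801 over all 6). A count test was not possible with 1 library per stage.

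RPM was summed per amino acid, anticodon and read family, 1 RPM was added, and log2 ratios were taken of shares of the table total or of RPM, so ratios of rare tRNAs are understated. A mean of 10 RPM over the 6 libraries was required (50 RPM for families, none for mitochondrial tRNAs). Shares have exact Clopper-Pearson intervals and ratios exact binomial intervals for the reads of both libraries, without the pseudocount. Anticodon loops needed 4 of 5 stem pairs. RPM ratios, their intervals for reads set higher, and read recovery were tested on simulated counts with counting error alone. Ratios by share were not tested in this way. Python 3.11.15, NumPy 2.4.6, pandas 2.3.3, SciPy 1.17.1 and Matplotlib 3.10.9 were used.

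Named were the 10 most abundant anticodons, those at least 2-fold higher or lower or the 5 most extreme of a side, all 5′ fragment donors and both methionine tRNAs. Also named were the 5 most abundant reads, the 8 highest and 8 lowest of at least 100 RPM, and any mitochondrial tRNA. Read families, the pairs printed and other anticodons were named after their values were seen. The members and lists were chosen with earlier results of these data known. Alternatives were RPM, median-ratio scaling, shares without His-GTG, pseudocounts of 0.1 and 10 RPM, other filters, only reads ending in CCA and only reads of at least 70 nt; halving the mitochondrial counts was added after seeing the data.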

Additional observations from a re-analysis of the deposited data

How the results depend on the processing

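The scale decided the counts past the 2-fold size. Anticodons at least 2-fold higher were 2 in RPM and 3 under median-ratio scaling against 0 by share. Anticodons at least 2-fold lower were 0 under both of these against 8, and 5 with a pseudocount of 10 RPM, 4 with a filter of 100 RPM, 5 with CCA reads only and 3 with reads of at least 70 nt. Read sequences higher, 26 by share, were 128 in RPM, 60 under median-ratio scaling, 6 with a pseudocount of 10 RPM, 44 without a filter, 4 with a filter of 100 RPM and 0 with reads of at least 70 nt. Read sequences lower, 150 by share, were 42, 75, 80, 393, 10 and 9 under the same settings. The numbers tested differed: 1913 sequences by share, 3021 without a filter and 357 with a filter of 100 RPM. Fewer than the 35 anticodons were left with a filter of 100 RPM, with CCA reads only and with reads of at least 70 nt. Counts under those settings are therefore not directly comparable with those by share. Mitochondrial tRNAs lower were 16 in RPM against 0 by share. The mitochondrial total of -1.004 was -1.18 as a share of both tables (-1.31 with its counts halved), -1.46 against the cytoplasmic total and -1.44 against cytoplasmic reads other than His-GTG. No cytoplasmic anticodon at least 2-fold lower by share changed sign under the alternatives run. Named anticodons of smaller ratio did: 4 of 22 in RPM, 6 of 22 under median-ratio scaling, 1 of 20 with CCA reads only and 2 of 11 with reads of at least 70 nt. Of the mitochondrial tRNAs at least 2-fold lower in RPM, 4 lay above 0 under median-ratio scaling, trnI at 0.08, trnV at 0.05, trnT at 0.05 and trnF at 0.02, and trnI lay at 0.003 by share. No paired analysis was possible because each stage has 1 library and no replicate numbers are shared, and leaving out a replicate was not possible for the same reason. Depth limits the anticodons below about 100 RPM, where intervals are widest.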
